A study of Homo sapiens with 33 samples.

Results

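The genes encoding subunits of Polycomb Repressive Complex 1 (PRC1) were followed across every genotype and chromatin mark of a study of *EZH2* disruption in H9, an established human embryonic stem cell (ESC) line. Members were taken by name from the gene and promoter tables, with no measured value used in the choice: *CBX2*, *CBX7*, *CBX8*, *BMI1*, *PCGF2*, *RING1*, *RNF2*, *PHC1* and *KDM2B*, 9 of the 35805 genes in the RNA-seq table. All 9 passed the filter on low values (a mean of at least 0.1 RPM, the reads on a gene scaled to 1e6 reads of the library). RNA-seq covered 12 libraries, 3 for each of 4 genotypes. EZH2+/+ ESCs are the parental H9 cells, and EZH2-/+ ESCs carry a CRISPR/Cas9 mutation on 1 allele. EZH2-/- ESCs were made from an EZH2-/+ line that already carried a doxycycline (DOX)-inducible piggyBac *EZH2* transgene, by a second round of targeting while DOX was given. EZH2-/-+EZH2 ESCs are the same engineered cells with the transgene switched on by DOX, so that EZH2-/- and EZH2-/-+EZH2 ESCs share their clonal history, which EZH2+/+ ESCs lack. Lines were picked as single clones, so a difference between genotypes of unlike clonal history cannot be told apart from a difference between clones. Between EZH2-/- and EZH2-/-+EZH2 ESCs, DOX treatment and *EZH2* expression from the transgene cannot be told apart. All cells were sorted for SSEA4, a surface antigen of human ESCs. ChIP-seq profiled H3K27me3, H3K4me3, H3K27ac, H3K4me1 and input in all 4 genotypes, and EZH2 binding in EZH2+/+ ESCs alone.

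PRC1 is the Polycomb complex that ubiquitinates histone H2A, whereas EZH2 is the catalytic subunit of PRC2, which methylates H3K27. Canonical PRC1 joins a RING E3 ligase to a PCGF protein, a PHC protein and a CBX protein whose chromodomain binds H3K27me3, and this links both complexes. Variant PRC1 carries no CBX reader, and KDM2B, which binds unmethylated CpG, brings one of its forms to CpG islands.

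By the value steps of the table the RNA libraries were scaled to 25019064 to 56845621 reads, so that 3 reads correspond to 0.120 to 0.0528 RPM, and 16587860 to 36589089 of the reads fell on genes. *EZH2* RNA ranged from 59.5 to 68.6 RPM over the EZH2+/+ libraries and from 45.7 to 55.4 RPM over EZH2-/+. The EZH2-/- libraries had 8.65 to 11.5 RPM and the rescued libraries 256 to 385 RPM, endogenous and transgene reads together. *POU5F1*, a defining pluripotency factor, averaged 680 RPM over EZH2+/+, 1041 RPM over EZH2-/+, 1294 RPM over EZH2-/- and 1266 RPM over EZH2-/-+EZH2 libraries. Of 14 pluripotent cell markers 8 were higher and 2 lower in EZH2-/- relative to EZH2+/+ ESCs, the lower being *SOX2* (224 to 109 RPM) and *TERT* (9.12 to 6.02 RPM). In EZH2-/- relative to EZH2-/-+EZH2 ESCs, 0 of 14 pluripotent cell markers, 2 of 11 endoderm markers, 6 of 12 mesoderm markers, 1 of 7 ectoderm markers tested and 5 of 11 fibroblast markers tested were higher, and none was lower in limma, a linear model fitted over all genes. For the pluripotent cell markers 2 of 14 had an unadjusted p under 0.05, beside 3460 of all 20608 genes tested. With voom on the recovered reads the calls were 0 of 14 pluripotent cell, 0 of 11 endoderm, 3 of 12 mesoderm, 0 of 7 ectoderm and 3 of 11 fibroblast markers. Summed mesoderm markers came to 195 to 280 RPM in EZH2-/- and 81.3 to 180 RPM in EZH2-/-+EZH2 libraries, summed endoderm markers to 194 to 526 RPM and 35.6 to 105 RPM, and summed fibroblast markers to 1133 to 2444 RPM and 906 to 1204 RPM. *HAND2*, *NEUROG2*, *NEUROD1* and *DCN* had no read in any EZH2-/-+EZH2 library. Replicate 2 stood apart in 2 genotypes. EZH2-/+ replicate 2 had 498 RPM of endoderm markers where replicates 1 and 3 had 92.7 and 19.1 RPM. EZH2-/- replicate 2 had 526 RPM of endoderm markers, beside 248 and 194 RPM, and 2444 RPM of fibroblast markers, beside 1133 and 1471 RPM. Every RNA value below is a bulk value, in which fewer cells of a type and less RNA per cell cannot be told apart, and the part of these markers in the results on PRC1 genes was not tested.

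Levels of different genes are compared here per kb of exon. In EZH2+/+ ESCs *PHC1* was the highest at 34.9 ± 5.06 RPM per kb (SD, n = 3 libraries), followed by *CBX2* at 21.1 ± 4.21 RPM per kb. *RING1* at 13.2 ± 1.69 and *PCGF2* at 13.2 ± 0.772 RPM per kb could not be ordered. Next came *RNF2* at 6.56 ± 0.412 RPM per kb and *KDM2B*, and then *BMI1* at 1.59 ± 0.406 RPM per kb. The lowest were *CBX7* at 0.796 ± 0.0853 and *CBX8* at 0.599 ± 0.160 RPM per kb, whose bands of 1 SD overlapped. Within the PCGF, PHC and RING families *PCGF2*, *PHC1* and *RING1* had the largest share in each EZH2+/+ library.

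**Figure D1:**
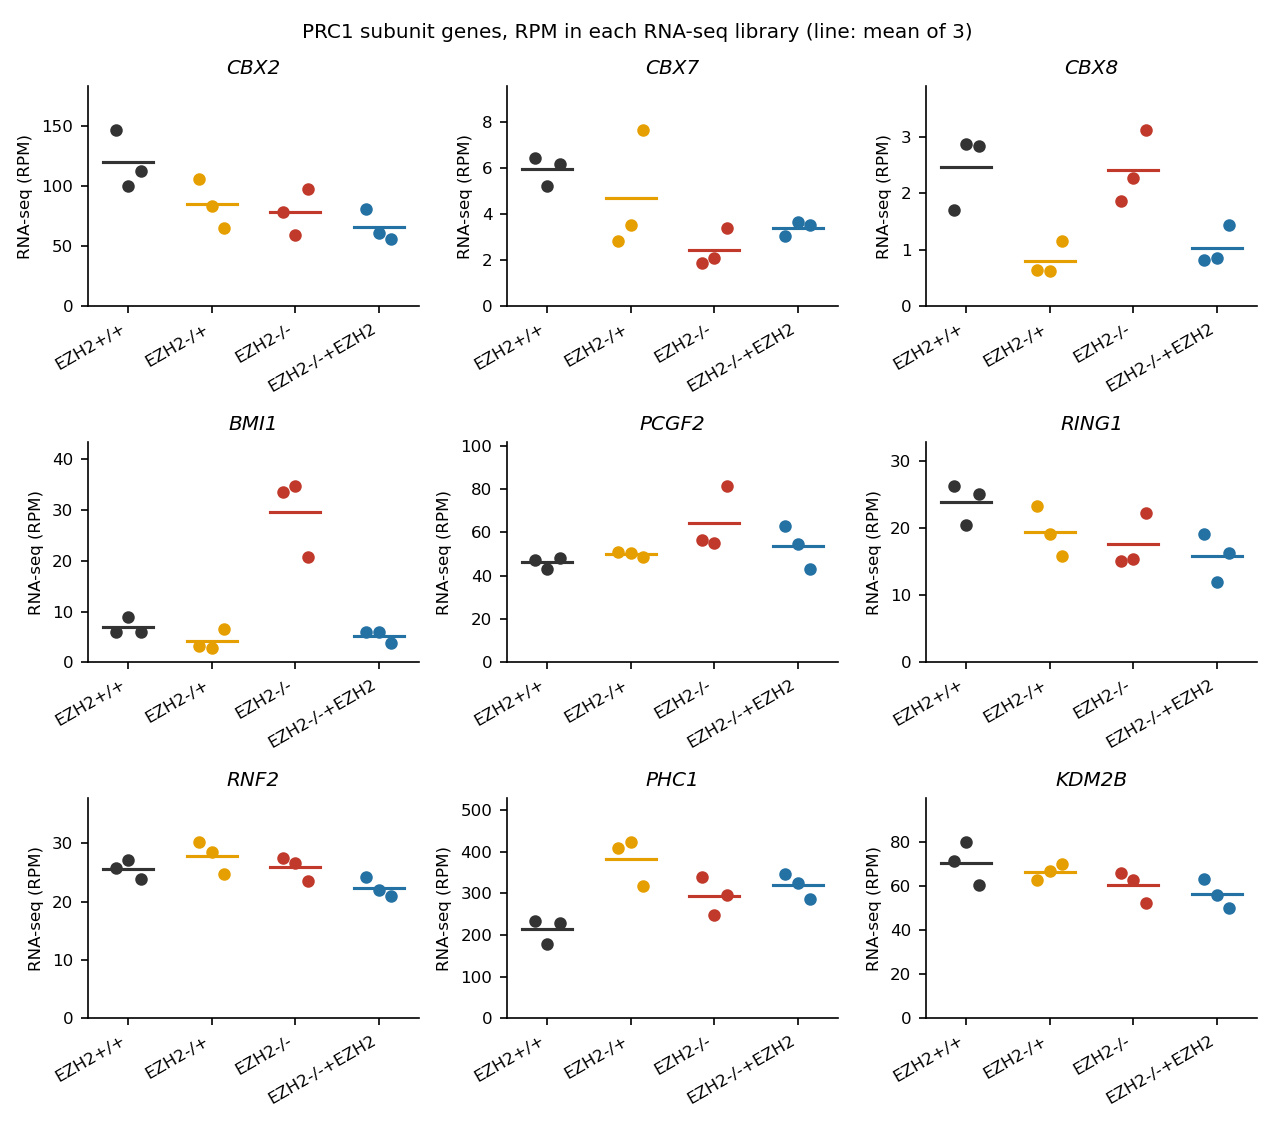
RNA-seq level in RPM (vertical axes, from 0, a scale of its own for each gene) of the 9 PRC1 subunit genes in the 3 libraries of each genotype, with each point a library and each line a mean. *BMI1* lies between 20.8 and 34.7 RPM in EZH2-/- libraries and at no more than 9.03 RPM in the other 9 libraries.

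Loss of *EZH2* was compared first with the rescued cells, which share the engineering of the EZH2-/- line. Of the 9 PRC1 genes 1 was called at an adjusted p under 0.05 in EZH2-/- relative to EZH2-/-+EZH2 ESCs, *BMI1*, which was higher, where limma called 3.15% of the 20608 genes tested (2.63% higher). The median log2 change of the 9 genes was 0.21, beside 0.02 over all genes tested. Relative to EZH2+/+ ESCs 2 of the 9 were called in EZH2-/- ESCs, *BMI1* (higher) and *CBX7* (lower), where 31.4% of all genes were called (12.6% higher and 18.8% lower). That comparison has a broad background, and the median of all genes was itself shifted, to -0.13, against -0.02 for the 9 genes. In EZH2-/+ relative to EZH2+/+ ESCs 2 of 9 were called, *PHC1* (higher) and *CBX8* (lower), beside 1.15% of all genes (0.18% higher and 0.966% lower). In EZH2-/-+EZH2 relative to EZH2+/+ ESCs 3 of 9 were called, *PHC1* (higher), *CBX2* and *CBX8* (both lower), beside 10.3% of all genes (3.4% higher and 6.9% lower) and a median over all genes of -0.15. The comparisons with EZH2+/+ ESCs share the EZH2+/+ libraries. *RING1*, *RNF2*, *PCGF2* and *KDM2B* were called in none of the 4 comparisons. Without EZH2-/+ replicate 2, the library with the most endoderm markers in its genotype, *CBX8* and *PHC1* had log2 changes of -1.38 (adjusted p = 0.21 from limma) and 0.76 (adjusted p = 0.17) in EZH2-/+ ESCs. Nothing in the labels says that the libraries of a genotype came from separate clones, so the p values measure the spread between these libraries.

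**Figure D2:**
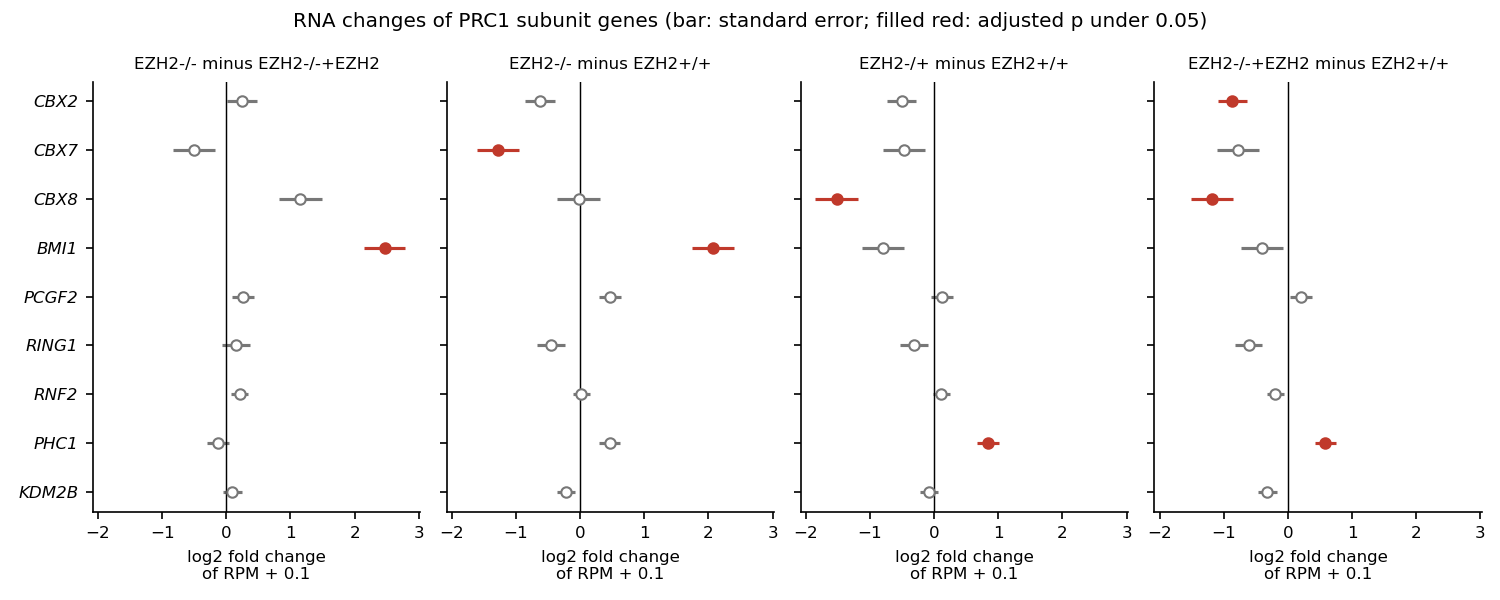
Log2 change of RPM + 0.1 (horizontal axes) of each PRC1 subunit gene in the 4 comparisons, with bars for the standard error (SE) from limma and filled red points for an adjusted p under 0.05. *BMI1* is filled on the right in both panels with EZH2-/- ESCs as the first group, and *CBX8* is filled on the left in the EZH2-/+ and EZH2-/-+EZH2 panels alone.

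The PCGF proteins pair with the RING ligases and define the type of PRC1. *BMI1* (PCGF4; ENSG00000168283, chromosome 10 of GRCh38, 22321211 to 22331484, plus strand) was measured at 33.6, 34.7 and 20.8 RPM in the 3 EZH2-/- libraries. It was at 6.07, 5.95 and 3.80 RPM in EZH2-/-+EZH2 libraries and at 5.91, 9.03 and 5.97 RPM in EZH2+/+ libraries. In EZH2-/+ libraries it was at 3.21, 2.81 and 6.49 RPM, so every EZH2-/- library lay above all other libraries and the remaining genotypes overlapped. The log2 change was 2.47 relative to EZH2-/-+EZH2 ESCs (standard error, SE, 0.33; adjusted p = 0.0028 from limma) and 2.07 relative to EZH2+/+ ESCs (SE 0.33, adjusted p = 0.00068). Leaving out each library in turn kept these between 2.25 and 2.70 and between 1.94 and 2.31, with adjusted p values of at most 0.023 and 0.0050. Both of these highest values came without EZH2-/- replicate 2, where the log2 changes were 2.34 and 1.94. The readthrough gene *COMMD3-BMI1*, which joins *BMI1* to its upstream neighbour, overlaps *BMI1* on the same strand over 8332 bases. It was at 17.2 to 26.8 RPM in EZH2-/- libraries and at 4.88 to 5.40 RPM in EZH2-/-+EZH2 libraries (log2 change 2.10, adjusted p = 0.0013), so reads of both genes cannot be told apart. *COMMD3* alone had a log2 change of 1.45 (adjusted p = 0.051). The 11 genes within 1 Mb of *BMI1* had a median log2 change of -0.0002 in the same comparison.

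*PCGF2* (MEL18; ENSG00000277258, chromosome 17, 38733897 to 38749817, minus strand), the close homolog of *BMI1* in canonical PRC1, was the more abundant of the pair per kb in every genotype. It was at 47.1, 43.1 and 48.2 RPM in EZH2+/+, 56.8, 55.3 and 81.4 RPM in EZH2-/- and 63.0, 54.6 and 43.1 RPM in EZH2-/-+EZH2 libraries. The third EZH2-/- library was the highest, and the ranges of EZH2-/- and EZH2-/-+EZH2 libraries overlapped. Every EZH2-/- library lay above every EZH2+/+ library. The log2 change in EZH2-/- ESCs was 0.26 relative to EZH2-/-+EZH2 (adjusted p = 0.48) and 0.46 relative to EZH2+/+ ESCs (adjusted p = 0.058, or 0.038 under the library-number block). The difference from EZH2+/+ ESCs also passed after median-ratio scaling (adjusted p = 0.016 from limma) and by voom (adjusted p = 0.036). Per kb, *BMI1* rose from 1.20 ± 0.291 RPM in EZH2-/-+EZH2 to 6.76 ± 1.76 RPM in EZH2-/- ESCs, where *PCGF2* was at 18.4 ± 4.18 RPM. Among the 6 PCGF genes *BMI1* took 21.0%, 21.5% and 11.2% of the summed RPM per kb in EZH2-/- libraries, 3.38% to 4.54% in EZH2-/-+EZH2, 4.58% to 7.20% in EZH2+/+ and 2.33% to 5.44% in EZH2-/+ libraries. The remaining PCGF genes, *PCGF1*, *PCGF3*, *PCGF5* and *PCGF6*, which assemble variant PRC1, passed the test in 0 of the 4 comparisons, with log2 changes from -0.18 (*PCGF6*) to 0.26 (*PCGF1*) in EZH2-/- relative to EZH2-/-+EZH2 ESCs.

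The CBX proteins carry the chromodomain that reads H3K27me3. *CBX8* (ENSG00000141570, chromosome 17, 79792132 to 79801683, minus strand) was scarce, with 26 to 65 reads per EZH2-/+ library and 105 to 121 per EZH2-/- library. It was at 1.71, 2.87 and 2.84 RPM in EZH2+/+ and 0.637, 0.627 and 1.16 RPM in EZH2-/+ libraries. EZH2-/- libraries had 1.86, 2.27 and 3.12 RPM, and EZH2-/-+EZH2 libraries had 0.823, 0.858 and 1.44 RPM. EZH2+/+ and EZH2-/- libraries thus covered the same range, and all EZH2-/+ and EZH2-/-+EZH2 libraries lay below both. The log2 change was -1.52 in EZH2-/+ (SE 0.33, adjusted p = 0.048 from limma) and -1.18 in EZH2-/-+EZH2 ESCs (SE 0.33, adjusted p = 0.040), each relative to EZH2+/+. Without any one of the 3 EZH2+/+ libraries, EZH2-/+ replicate 1 or EZH2-/+ replicate 2, the first rose to an adjusted p of 0.067 to 0.25. Without EZH2+/+ replicate 2 or 3, or EZH2-/-+EZH2 replicate 1 or 2, the second rose to 0.11 to 0.15. Between EZH2-/- and EZH2-/-+EZH2 ESCs the log2 change of *CBX8* was 1.15 (SE 0.33, adjusted p = 0.085), which did not pass, and under the library-number block it passed (adjusted p = 0.010). Relative to EZH2+/+ ESCs the change in EZH2-/- ESCs was -0.02 (SE 0.33, adjusted p = 0.96).

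*CBX2* (ENSG00000173894, chromosome 17, 79778132 to 79787983, plus strand) adjoins *CBX8* and was far more abundant. It was at 146, 100 and 112 RPM in EZH2+/+ and 106, 83.4 and 65.5 RPM in EZH2-/+ libraries. EZH2-/- libraries had 78.0, 59.4 and 97.2 RPM, and EZH2-/-+EZH2 libraries had 80.5, 60.7 and 55.6 RPM. All EZH2-/- and EZH2-/-+EZH2 libraries were below every EZH2+/+ library, and EZH2-/- and EZH2-/-+EZH2 libraries overlapped each other. The log2 change relative to EZH2+/+ ESCs was -0.87 in EZH2-/-+EZH2 (SE 0.23, adjusted p = 0.031) and -0.62 in EZH2-/- ESCs (SE 0.23, adjusted p = 0.055, or 0.013 under the library-number block). In EZH2-/-+EZH2 ESCs the call was lost (adjusted p = 0.051 to 0.13) without any one of the EZH2+/+ libraries or without replicate 2 or 3 of EZH2-/-+EZH2. In EZH2-/- ESCs it was gained without EZH2-/- replicate 3 (adjusted p = 0.033). The 30 genes within 1 Mb of *CBX2* had a median log2 change of -0.56 in EZH2-/-+EZH2 and -0.35 in EZH2-/- relative to EZH2+/+ ESCs, with 0 of 30 higher in the first and 7 of 30 in the second. Input chromatin in the 275 promoter windows of this region differed by a median of -0.13 and -0.24 on the log2 scale in these comparisons, beside 0.04 and -0.003 over all windows. The part of the region in the values of *CBX2* and *CBX8* was not tested.

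*CBX7* (ENSG00000100307, chromosome 22, 39120167 to 39152674, minus strand), in mouse ESCs the main CBX reader, was minor here. It was at 6.44, 5.22 and 6.16 RPM in EZH2+/+ and 1.88, 2.08 and 3.38 RPM in EZH2-/- libraries, which did not overlap. In EZH2-/+ libraries it was at 2.84, 3.54 and 7.63 RPM, and in EZH2-/-+EZH2 libraries at 3.03, 3.67 and 3.52 RPM. The rescued libraries overlapped EZH2-/- and lay below every EZH2+/+ library. The log2 change in EZH2-/- relative to EZH2+/+ ESCs was -1.28 (SE 0.33, adjusted p = 0.011), and the adjusted p was at most 0.046 whichever library was left out. In EZH2-/- relative to EZH2-/-+EZH2 ESCs it was -0.50 (SE 0.33, adjusted p = 0.48). The rescued cells differed from EZH2+/+ ESCs by -0.78 (adjusted p = 0.15, or 0.048 under the library-number block). Counting ignored strand, and the antisense gene *RP4-742C19.13*, which overlaps *CBX7* over 3671 bases, moved alongside, from 1.66 to 2.02 RPM in EZH2+/+ to 0.369 to 0.831 RPM in EZH2-/- libraries (log2 change -1.43, adjusted p = 0.0080). Reads of the pair cannot be told apart.

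The paralogous reader *CBX6* passed in none of the comparisons, with a log2 change of -0.14 (adjusted p = 0.86 from limma) between EZH2-/- and EZH2-/-+EZH2 ESCs.

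*RING1* (RING1A; ENSG00000204227, chromosome 6, 33208495 to 33212722, plus strand) and *RNF2* (RING1B; ENSG00000121481, chromosome 1, 185045364 to 185102608, plus strand) encode the E3 ligases that ubiquitinate H2A. *RNF2* held a narrow range, with 25.8, 27.2 and 24.0 RPM in EZH2+/+ and 27.5, 26.6 and 23.6 RPM in EZH2-/- libraries. Its values were 30.2, 28.5 and 24.7 RPM in EZH2-/+ and 24.2, 22.1 and 20.9 RPM in EZH2-/-+EZH2 libraries, and all genotypes but EZH2-/-+EZH2 against EZH2-/+ overlapped. The log2 change of *RNF2* in EZH2-/- ESCs was 0.21 relative to EZH2-/-+EZH2 (SE 0.13, adjusted p = 0.46) and 0.02 relative to EZH2+/+ ESCs (SE 0.13, adjusted p = 0.94). *RING1* was at 26.2, 20.4 and 25.0 RPM in EZH2+/+ and 15.1, 15.4 and 22.2 RPM in EZH2-/- libraries, which overlapped through the third EZH2-/- library. EZH2-/+ libraries had 23.3, 19.2 and 15.8 RPM, and EZH2-/-+EZH2 libraries 19.1, 12.005 and 16.3 RPM. Its log2 change in EZH2-/- ESCs was 0.15 relative to EZH2-/-+EZH2 (adjusted p = 0.77) and -0.46 relative to EZH2+/+ ESCs (adjusted p = 0.13). The rescued cells differed from EZH2+/+ ESCs by -0.61 (adjusted p = 0.094), and this passed under the library-number block (adjusted p = 0.035). *RING1* made up 61.9% to 69.3% of the RPM per kb of both ligases in EZH2+/+ libraries and 54.1% to 66.9% in EZH2-/- libraries.

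*PHC1* (ENSG00000111752, chromosome 12, 8913896 to 8941467, plus strand) encodes a polyhomeotic protein, whose SAM domain lets canonical PRC1 polymerise. It was at 234, 178 and 230 RPM in EZH2+/+ libraries and at 409, 423 and 318 RPM in EZH2-/+ libraries. EZH2-/- libraries had 340, 248 and 296 RPM, and EZH2-/-+EZH2 libraries had 347, 325 and 286 RPM. Each of the 9 engineered libraries was above each EZH2+/+ library, and the 3 engineered genotypes overlapped. The log2 change relative to EZH2+/+ ESCs was 0.84 in EZH2-/+ (SE 0.17, adjusted p = 0.035), 0.58 in EZH2-/-+EZH2 (SE 0.17, adjusted p = 0.045) and 0.46 in EZH2-/- ESCs (SE 0.17, adjusted p = 0.055, or 0.017 under the library-number block). Between EZH2-/- and EZH2-/-+EZH2 ESCs it was -0.13 (SE 0.17, adjusted p = 0.75). In EZH2-/+ ESCs the call was lost (adjusted p = 0.056 to 0.20) without any one of the EZH2+/+ libraries or without EZH2-/+ replicate 1 or 2, and in EZH2-/-+EZH2 ESCs (0.069 to 0.19) without any one of the EZH2+/+ libraries or without EZH2-/-+EZH2 replicate 1 or 2. In EZH2-/- ESCs it was gained without EZH2-/- replicate 2 (adjusted p = 0.047). The 29 genes within 1 Mb had medians of -0.16, -0.08 and -0.15 in these 3 comparisons. *M6PR*, which overlaps the 3′ end of *PHC1* on the other strand over 1105 bases, had 94.7 to 134 RPM over EZH2+/+ libraries and 131 to 161 RPM over EZH2-/+ libraries.

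The paralog *PHC2* went the other way. It fell in EZH2-/- relative to EZH2+/+ ESCs, to 22.2 ± 3.16 from 48.9 ± 13.1 RPM (SD, n = 3 libraries; log2 change -1.11, adjusted p = 0.0069 from limma), and in EZH2-/-+EZH2 relative to EZH2+/+ ESCs (log2 change -1.0, adjusted p = 0.029). *PHC1* therefore took 75.8% to 81.9% of the RPM per kb of the 3 PHC genes in EZH2+/+ libraries and 85.6% to 93.3% in the engineered libraries. *PHC3* did not pass in any comparison.

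*KDM2B* (ENSG00000089094, chromosome 12, 121429097 to 121581015, minus strand) encodes the CXXC-domain protein that tethers variant PRC1 to unmethylated CpG. It was at 71.4, 80.0 and 60.3 RPM in EZH2+/+ and 65.9, 62.9 and 52.3 RPM in EZH2-/- libraries. EZH2-/+ libraries had 62.6, 66.8 and 69.8 RPM, and EZH2-/-+EZH2 libraries had 63.1, 56.2 and 50.1 RPM, with all 4 genotypes overlapping. Its log2 change in EZH2-/- ESCs was 0.10 relative to EZH2-/-+EZH2 (SE 0.15, adjusted p = 0.78) and -0.22 relative to EZH2+/+ ESCs (SE 0.15, adjusted p = 0.27). *KDM2A*, its paralog, had log2 changes of 0.10 and -0.06 in the same comparisons (adjusted p = 0.80 and 0.82).

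Among 23 other genes of variant PRC1, 0 passed in EZH2-/- relative to EZH2-/-+EZH2 ESCs, 2 were higher and 2 lower relative to EZH2+/+ ESCs. The higher genes were *FBRSL1* (log2 change 1.24, adjusted p = 0.0062) and *USP7*, a deubiquitinase found in variant PRC1 (0.42, adjusted p = 0.024). The lower were *YAF2*, the homolog of *RYBP* (-1.21, adjusted p = 0.00082), and *DCAF7* (-0.58, adjusted p = 0.0077). Of 14 genes for enzymes or cofactors linked to the removal of ubiquitin from H2A, 0 passed relative to EZH2-/-+EZH2 ESCs. Relative to EZH2+/+ ESCs 2 were higher and 4 lower, where the background was 31.4%. *USP3* (log2 change -1.47, adjusted p = 0.00013), *ASXL1* (-1.04, adjusted p = 0.00083), *USP21* (-0.82, adjusted p = 0.0026) and *ASXL3* (-2.28, adjusted p = 0.017) were lower, and *USP51* (0.61, adjusted p = 0.041) and *BRCC3* (0.72, adjusted p = 0.043) were higher. All 4 of the lower genes were also lower in EZH2-/-+EZH2 relative to EZH2+/+ ESCs (adjusted p = 0.0061 to 0.022). At unadjusted p values under 0.05 from limma there were 0 of 8 paralogs, 3 of 23 variant PRC1 genes and 1 of 14 deubiquitinase genes relative to EZH2-/-+EZH2 ESCs. Over all 20608 genes tested there were 3460. Voom called 0 of each list. In that comparison *BMI1* was the one gene called among the 9 members, their 8 paralogs, the 23 variant PRC1 genes and the 14 deubiquitinase genes.

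ChIP-seq signal was read in windows of 5 kb centred on start sites (153958 windows). For each gene name the window with the most H3K27me3 in EZH2+/+ ESCs was used, a choice that by itself favours a higher value in EZH2+/+ than in any other column. The table has 1 column for each genotype and mark, so ChIP-seq differences have no replicate error and no test, and a difference of at least 1 on the log2(RPM + 0.1) scale is called past the fold. Depth was 3.43 M reads for H3K4me3 in EZH2+/+ ESCs and 8.71 to 23.8 M reads in the other histone and input columns, and 10 reads are worth 0.723 RPM for H3K27me3 in EZH2-/- ESCs. Of the 9 members, *CBX7*, *CBX8*, *BMI1* and *KDM2B* had an H3K27me3 promoter in EZH2+/+ ESCs by the rule of the study's methods (below 0.1 log2 RPKM in input but above 0.1 log2 RPKM in the H3K27me3 column), 4 of 9 beside 17.5% of all gene names. The rule was rebuilt here from its description, and the count depends on it. In EZH2+/+ ESCs H3K27me3 stood above 92.2% of gene names at *CBX7* and 89.5% at *KDM2B*, so a stricter rule would leave these out before *CBX8* and *BMI1*. *RING1*, at 5.09 RPM in EZH2+/+ ESCs, fell just short of the rule.

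RefSeq start-site entries were found for 7 of the 9 members. The 250 bases before a start are shown for *BMI1* and *CBX7*, whose windows carried H3K27me3, and for *PHC1* and the middle one of 3 upstream starts of *KDM2B*, whose windows did not. Capitals mark CpG, the dinucleotide CG (the same on both strands), and all are written 5′ to 3′ on the strand of the gene.
BMI1, chr10:22321706-22321955, GRCh38.p14, plus strand: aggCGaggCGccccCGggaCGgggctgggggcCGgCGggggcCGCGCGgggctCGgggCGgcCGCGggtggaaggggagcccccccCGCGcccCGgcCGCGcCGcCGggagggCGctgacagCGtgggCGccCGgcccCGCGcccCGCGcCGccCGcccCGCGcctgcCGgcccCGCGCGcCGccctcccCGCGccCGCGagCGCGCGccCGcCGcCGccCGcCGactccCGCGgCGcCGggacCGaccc
CBX7, chr22:39152681-39152930, GRCh38.p14, minus strand: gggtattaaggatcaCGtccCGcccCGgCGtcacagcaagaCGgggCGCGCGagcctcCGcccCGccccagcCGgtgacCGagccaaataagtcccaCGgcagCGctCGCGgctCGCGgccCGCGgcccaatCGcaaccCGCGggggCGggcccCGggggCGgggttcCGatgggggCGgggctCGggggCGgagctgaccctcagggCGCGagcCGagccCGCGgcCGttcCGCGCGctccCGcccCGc
PHC1, chr12:8913593-8913842, GRCh38.p14, plus strand: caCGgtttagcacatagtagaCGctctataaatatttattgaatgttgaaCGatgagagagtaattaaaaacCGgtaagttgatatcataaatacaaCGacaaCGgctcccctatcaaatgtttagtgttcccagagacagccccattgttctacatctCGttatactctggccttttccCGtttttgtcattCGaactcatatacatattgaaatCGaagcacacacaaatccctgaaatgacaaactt
KDM2B, chr12:121580247-121580496, GRCh38.p14, minus strand: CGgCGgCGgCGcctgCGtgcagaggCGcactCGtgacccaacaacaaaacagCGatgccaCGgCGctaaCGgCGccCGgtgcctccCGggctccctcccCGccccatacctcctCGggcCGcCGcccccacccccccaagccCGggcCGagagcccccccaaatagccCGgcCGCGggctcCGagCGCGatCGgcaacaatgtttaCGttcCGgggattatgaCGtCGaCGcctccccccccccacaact
*BMI1* had 54 CpG in this stretch of 250 bases, and 0.0399% of the 35116 RefSeq stretches of the same length had as many. *CBX7* had 41 (as many in 1.73%), *KDM2B* had 32 (9.52%) and *PHC1* had 10 (52.2%), beside a median of 11 over all stretches. The other *BMI1* start had 35, and the other *PHC1* start had 23. The other upstream starts of *KDM2B* had 13 and 11, and an internal start (chr12:121467379-121467628) had 34. None of these *KDM2B* starts lies in its window with the most H3K27me3 (chr12:121535116-121540116). CpG content differed widely among members without an H3K27me3 promoter by the rule too, from 1 at *PCGF2* to 34 each at *RING1* and *RNF2*.

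H3K27me3 was at 56.8 RPM at *CBX8* (chr17:79799033-79804033), higher than at 99.9% of gene names, 18.1 RPM at *BMI1* (chr10:22319606-22324606), 12.9 RPM at *CBX7* (chr22:39149944-39154944) and 9.72 RPM at *KDM2B* (chr12:121535116-121540116) in EZH2+/+ ESCs. In EZH2-/- ESCs the same windows had 4.81, 0.574, 0.506 and 0.501 RPM. The log2 difference was -3.54 at *CBX8*, -4.75 at *BMI1*, -4.42 at *CBX7* and -4.03 at *KDM2B*, beside a median of -3.67 over all 6235 H3K27me3 promoters, of which 98.3% were lower by at least 1 (97.3% relative to EZH2-/-+EZH2 ESCs). In EZH2-/- ESCs the *CBX8* window had more H3K27me3 signal than 97.8% of gene names. RPM are scaled to the reads of each column, so they do not give how much of the mark was kept. With the transgene on, H3K27me3 stood at 48.6 RPM at *CBX8*, 17.6 RPM at *BMI1*, 7.75 RPM at *CBX7* and 9.18 RPM at *KDM2B*. It was at 63.6, 20.0, 12.1 and 10.6 RPM in EZH2-/+ ESCs, so the 3 genotypes with *EZH2* differed by less than 1 on the log2 scale at each of these windows.

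The other 5 members had less of the mark. *RING1* was at 5.09 RPM, *CBX2* at 3.95 RPM, *RNF2* at 3.63 RPM, *PCGF2* at 2.03 RPM and *PHC1* at 1.27 RPM in EZH2+/+ ESCs, and at 0.663, 0.501, 1.23, 0.792 and 0.938 RPM in EZH2-/- ESCs. All members but *PHC1* were past the fold in EZH2-/- relative to EZH2+/+ ESCs, 8 of 9 beside 48% of all gene names, with a median of -2.77 against -0.94. Relative to EZH2-/-+EZH2 ESCs, a column that did not enter the choice of windows, they were again 8 of 9, beside 37.3% of all gene names, with a median of -3.31 against -0.59. The fold was not reached by *PCGF2* relative to EZH2+/+ with a pseudocount of 1 RPM (-0.76) or after centring on promoters without H3K27me3 (-0.58), nor by *RNF2* after centring (-0.82), nor by *RNF2* relative to EZH2-/-+EZH2 ESCs under either (-0.87 and -0.89). Of the 9, 0 were past the fold between EZH2-/-+EZH2 and EZH2+/+ ESCs (5.55% of gene names were lower and 1.18% higher). In EZH2-/+ relative to EZH2+/+ ESCs 1 of 9 was lower by at least 1, *PHC1* (1.27 to 0.565 RPM), beside 4.45% of gene names.

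EZH2 itself, profiled in EZH2+/+ ESCs alone, was at 13.1 RPM at *CBX8* and 6.40 RPM at *BMI1*, above 99.9% and 99.4% of gene names. It was at 2.02 RPM at *CBX2* (above 96.7%), 1.23 RPM at *PCGF2*, 1.17 RPM at *CBX7*, 0.837 RPM at *KDM2B*, 0.590 RPM at *RING1*, 0.537 RPM at *RNF2* and 0.311 RPM at *PHC1*. The *PHC1* window with the most H3K4me3 had 0.751 RPM of EZH2, more than the windows of *RING1* and *RNF2*. The order by EZH2 was not the order by H3K27me3, since *CBX2* had more EZH2 than *CBX7*, with less H3K27me3. The EZH2 values of *PCGF2* and *CBX7* were too close to order in a single column.

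**Figure D3:**
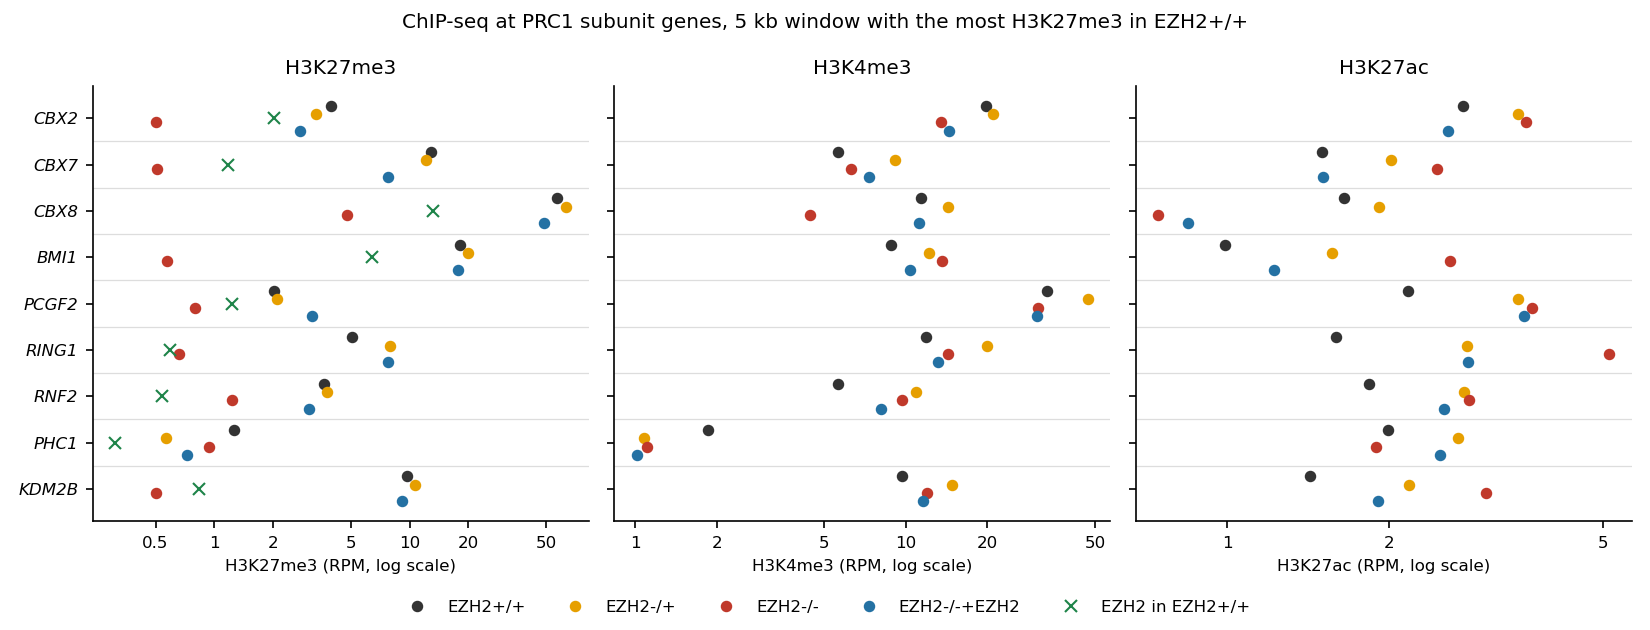
H3K27me3, H3K4me3 and H3K27ac (horizontal axes, RPM on log scales) in the window with the most H3K27me3 in EZH2+/+ ESCs, with 1 point for each genotype and, in the left panel, a cross for EZH2 in EZH2+/+ ESCs. The EZH2-/- points stand apart on the left for H3K27me3 at 8 of the 9 genes, all but *PHC1*, and on the right for H3K27ac at *BMI1* and *RING1*. The windows of *KDM2B* and *PHC1* are those of internal starts.

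H3K27me3 marked every start-site window of some members and only part of the windows of others. Stretches of a gene away from its start sites were not covered by the windows. *BMI1* had 10 distinct windows, all of them H3K27me3 promoters, from 6.46 to 18.1 RPM with EZH2+/+ and from 0.383 to 0.574 RPM with EZH2-/- chromatin. At *CBX8* all 4 windows were marked, from 40.1 to 56.8 RPM with EZH2+/+ and from 2.58 to 4.81 RPM with EZH2-/- chromatin. At *CBX7* the mark was on 5 of 7 windows. *KDM2B* had 4 marked windows of 17, grouped within 1.55 kb of one internal start. That start lies downstream of the *KDM2B* window with the most H3K4me3 in EZH2+/+ ESCs, where EZH2+/+ ESCs had 0.711 RPM of H3K27me3 and 28.7 RPM of H3K4me3 and EZH2-/- ESCs had 1.12 and 30.8 RPM.

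**Figure D4:**
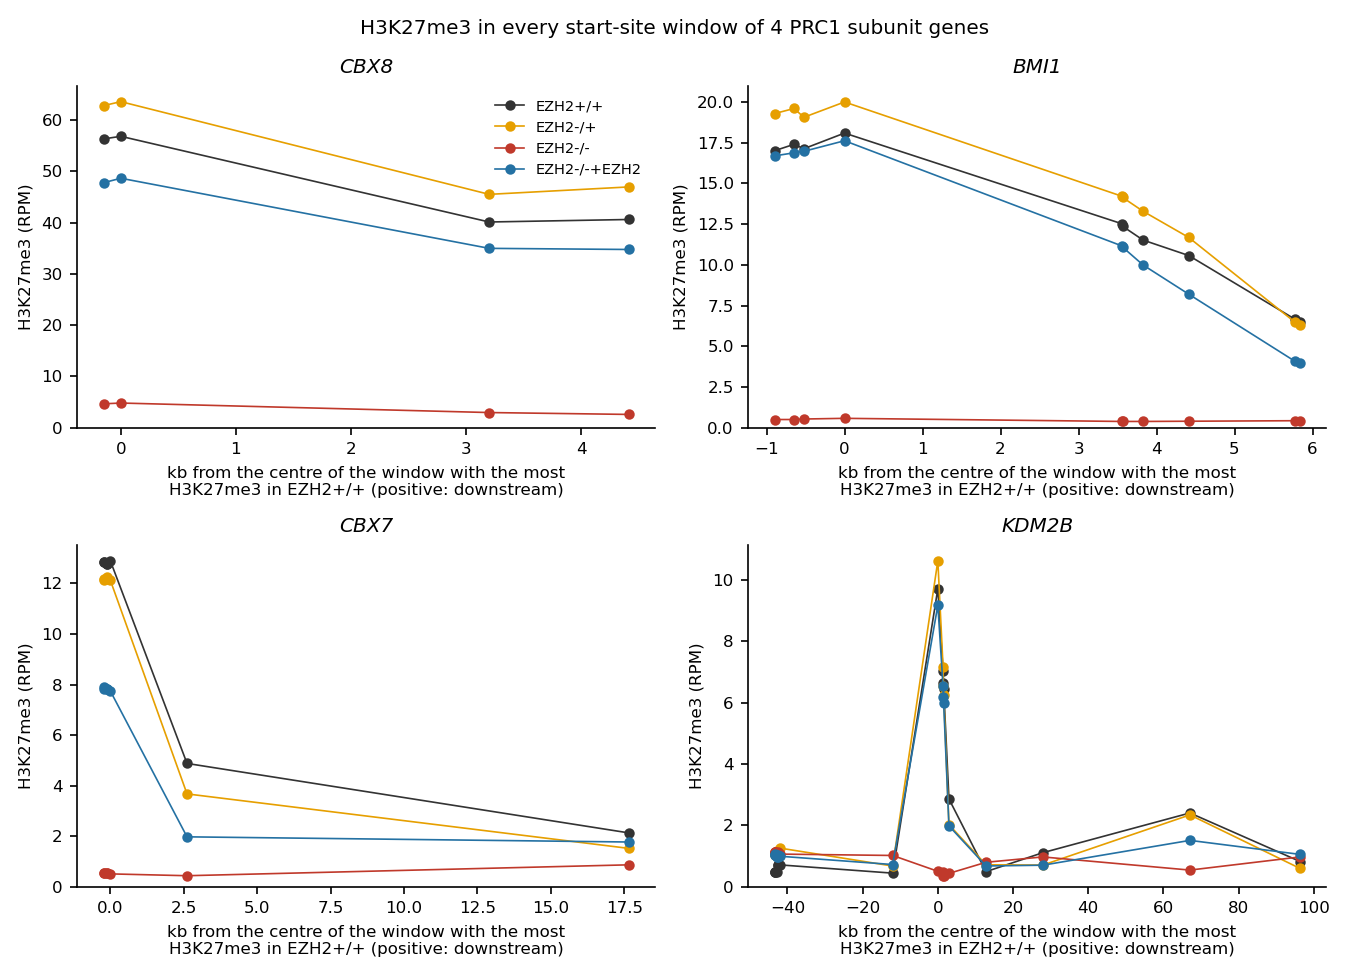
H3K27me3 in RPM (vertical axes) in every distinct start-site window of *CBX8*, *BMI1*, *CBX7* and *KDM2B* by distance in kb from the centre of the window with the most H3K27me3 in EZH2+/+ ESCs (horizontal axes), with 1 line for each genotype. At *KDM2B* the mark forms 1 peak, at 9.72 RPM in EZH2+/+ ESCs, and the group of upstream starts farthest to the left stays at 0.478 to 0.711 RPM.

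Active marks moved less. H3K27ac was past the fold upwards in EZH2-/- relative to EZH2+/+ ESCs at *RING1* (1.59 to 5.14 RPM), *BMI1* (0.991 to 2.59 RPM) and *KDM2B* (1.42 to 3.03 RPM), 3 of 9 beside 9.2% of all gene names, and downwards at *CBX8* (1.64 to 0.744 RPM), 1 of 9 beside 3.32%. Relative to EZH2-/-+EZH2 ESCs *BMI1* alone was past the fold (1.22 to 2.59 RPM, log2 difference 1.03), 1 of 9 beside 3.85%. *RING1* came next, at 0.85. H3K4me3 was past the fold at *CBX8* alone, downwards, with 11.4 RPM (EZH2+/+), 11.1 RPM (EZH2-/-+EZH2) and 4.43 RPM (EZH2-/-), beside 12.6% of gene names relative to EZH2+/+ and 0.947% relative to EZH2-/-+EZH2 ESCs. In the *CBX8* window with the most H3K4me3, 3.2 kb downstream, the fall was smaller (14.1 to 9.86 RPM, log2 difference -0.51) and H3K27ac was higher instead (1.71 to 2.64 RPM). At *BMI1* H3K4me3 came to 8.83 RPM (EZH2+/+), 12.1 RPM (EZH2-/+), 13.6 RPM (EZH2-/-) and 10.3 RPM (EZH2-/-+EZH2). H3K4me1, a mark of promoter flanks and enhancers, was past the fold at *PCGF2* alone, with 2.09 RPM (EZH2+/+), 5.10 RPM (EZH2-/-) and 4.46 RPM (EZH2-/+) (2.34% and 0.362% of gene names were as much higher in these comparisons). Input at the 9 windows differed by -0.49 to 0.52 on the log2 scale between EZH2-/- and EZH2+/+ ESCs, and by -0.49 to 0.52 between EZH2-/- and EZH2-/-+EZH2 ESCs.

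The 4 members with an H3K27me3 promoter had different RNA changes once the mark was lower. In EZH2-/- relative to EZH2-/-+EZH2 ESCs *BMI1* had an H3K27me3 difference of -4.72 and rose by 2.47 at the RNA level. *CBX8* had -3.31 and an RNA change of 1.15, *KDM2B* -3.95 and 0.10, and *CBX7* -3.69 and -0.50, none of which passed the limma test (*CBX8* passed under the library-number block, adjusted p = 0.010). The *KDM2B* difference is that of its internal start. The *KDM2B* window with the most H3K4me3 carried little of the mark and differed by 0.12, while the RNA value covers the whole gene. *RING1*, which fell just short of the rule in EZH2+/+ ESCs, had 7.75 RPM in EZH2-/-+EZH2 ESCs and a difference of -3.36. Its RNA change did not pass either (adjusted p = 0.77 from limma). Of 8 paralogs 3 had an H3K27me3 promoter by the rebuilt rule, *PHC2*, *PCGF1* and *PCGF5*. None of these 3 passed the RNA test in the same comparison. *PCGF5* went from 18.3 RPM of H3K27me3 in EZH2-/-+EZH2 to 0.709 RPM in EZH2-/- ESCs with 5.67 and 5.65 RPM of RNA, a log2 change of -0.005 (SE 0.18, adjusted p = 0.99). *PHC2* had 11.8 and 0.960 RPM of H3K27me3 and an RNA change of -0.11 (SE 0.26, adjusted p = 0.87).

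**Figure D5:**
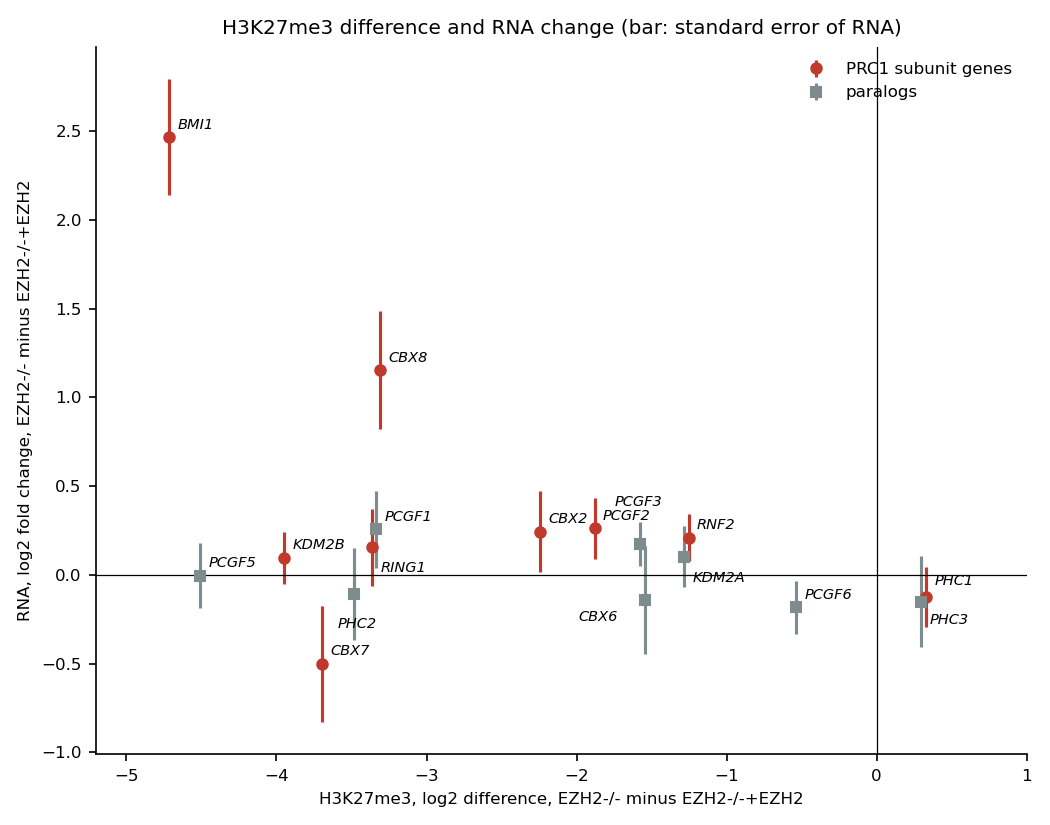
H3K27me3 difference (horizontal axis, log2(RPM + 0.1), no replicates) and RNA log2 change (vertical axis, bars for the SE from limma) in EZH2-/- minus EZH2-/-+EZH2 ESCs for the 9 PRC1 subunit genes (red) and their 8 paralogs (grey). *BMI1* is at -4.72 and 2.47, and *PCGF5*, at a similar H3K27me3 difference, is at an RNA change near 0. *KDM2B* and *PHC1* are each placed by the window of an internal start.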

How the data were processed

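RNA-seq covered 4 genotypes with 3 libraries each. The authors trimmed reads (Trim Galore 0.4.0), aligned them to GRCh38 (TopHat2 2.0.12 for RNA, Bowtie2 2.2.5 for ChIP-seq, per the submitters' processing notes), counted them in SeqMonk without regard to strand and deposited log2 RPM, in which a gene without a read stands at 0.9 of 1 read. ChIP-seq windows, 2.5 kb either side of a start site, were deposited as log2 RPM of non-duplicated reads, with 1 column for each genotype and histone mark and 1 for EZH2. The low values of histone columns step like a mean of 2 libraries, whereas the study describes an average of 3 replicates, so the number of libraries behind a column is uncertain. No column was left without a sample.

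Values were returned to RPM, with genes without a read at 0. Below 1000 reads, 100% of RNA values were whole multiples of 1 read to within 0.02 of a read or 0.02% of the value. Depth gives counting error only. All 12 libraries entered 1 moderated linear model (limma 3.58.1 with an intensity trend, R 4.3.3) of log2(RPM + 0.1), where low genes show less than their full change. The 20608 genes whose mean reached 0.1 RPM were tested, with Benjamini-Hochberg adjustment over all of them and a threshold of 0.05. DESeq2, which the authors used, was not run. The deposited unit is log2 RPM, and the recovered reads were tested with voom alone.

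Library numbers recur in every genotype, and the labels do not say what they mark. Deviations from the genotype mean correlated at r = 0.107 to 0.560 in all 18 same-numbered pairs (mean -0.159 over the 36 other pairs), so a fit with the number as a block is given where it changes a call. Exon lengths came from GENCODE release 44. Alternatives were another pseudocount, other filters, median-ratio scaling, the block, only the libraries compared, voom on the recovered reads, each library left out, and for ChIP-seq another window, pseudocount or centring.

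Named genes were all 9 members and 8 paralogs, genes of the variant PRC1 and deubiquitinase lists with an adjusted p under 0.05 in EZH2-/- ESCs relative to either comparator, at most 8 a list, and at most 3 genes a marker list by mean RPM. *COMMD3*, *COMMD3-BMI1*, *RP4-742C19.13*, *M6PR*, *SOX2*, *TERT* and the markers without a read in EZH2-/-+EZH2 libraries were named after their values were seen. The members and lists were chosen with earlier results of these data known. Some listed genes are not reported here.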

Additional observations from a re-analysis of the deposited data

How the results depend on the processing

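*BMI1* was called higher in EZH2-/- ESCs against both comparators, and *CBX7* lower against EZH2+/+, under every alternative run, whereas the calls of *CBX2*, *CBX8* and *PHC1* were not stable. *PCGF2*, not called in the main fit, was called higher in EZH2-/- against EZH2+/+ ESCs under the block, median-ratio scaling and voom. Of 468 alternative values of single members in RNA-seq, 407 kept their direction and side of the threshold. The others were 35 that lost their call, 14 that gained one and 12 that turned sign. In ChIP-seq 405 of 432 kept their side of the fold, whatever their sign. A further 18 fell short of the fold, 5 came past it, and 4 that were past it turned sign. Sign changes short of the fold were not counted in ChIP-seq. With the window of most H3K4me3, *PHC1* went from -0.396 to 0.875 for H3K27me3 in EZH2-/- against EZH2+/+ ESCs. The number of members called was 1 for EZH2-/- against EZH2-/-+EZH2 ESCs, 2 with the replicate block and 1 with any library left out. Against EZH2+/+ it was 2 for EZH2-/- ESCs, 5 with the replicate block, 4 after median-ratio scaling, 4 by voom and 2 to 3 with a library left out. For EZH2-/+ ESCs it was 2, then 0 without a filter, 1 with a filter at 1 RPM, 1 after median-ratio scaling, 1 by voom, 0 in a fit of the 6 libraries compared and 0 to 2 with a library left out. For EZH2-/-+EZH2 ESCs it was 3, then 0 without a filter, 5 with the replicate block and 0 to 2 with a library left out. The block changed no other call of a member than those given beside the results. Counts over all genes ran from 118 to 1937 (main 650), 4107 to 9339 (6463), 23 to 602 (236) and 885 to 4611 (2123) in the order of the comparisons above. Sign changes in RNA-seq concerned log2 fold changes near 0. These were *RING1* in EZH2-/- against EZH2-/-+EZH2 ESCs (-0.028 to 0.303 with a library left out), *CBX8* in EZH2-/- against EZH2+/+ (0.081 after median-ratio scaling, -0.26 to 0.14 with a library left out), *RNF2* in the same comparison (-0.032 to 0.080 with a library left out) and *KDM2B* in EZH2-/+ against EZH2+/+ (0.0014 after median-ratio scaling, -0.19 to 0.017 with a library left out).

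For ChIP-seq, the window with the most H3K4me3 in place of the one with the most H3K27me3 turned the H3K27me3 difference of *KDM2B* to 0.59 in EZH2-/- against EZH2+/+ and 0.12 against EZH2-/-+EZH2 ESCs, that of *PHC1* to 0.70 in EZH2-/+ against EZH2+/+, and the H3K27ac difference of *CBX8* to 0.60 in EZH2-/- against EZH2+/+ ESCs. With that window the members past the fold became 1 for H3K27me3 in EZH2-/-+EZH2 against EZH2+/+ (main 0), 0 for H3K4me3 in both comparisons of EZH2-/- ESCs (main 1), 0 for H3K27ac in EZH2-/- against EZH2-/-+EZH2 (main 1) and 2 for H3K27ac in EZH2-/-+EZH2 against EZH2+/+ (main 0). With a pseudocount of 1 RPM they became 0 for H3K27me3 in EZH2-/+ against EZH2+/+ (main 1), 1 for H3K27ac in EZH2-/- against EZH2+/+ (main 4), 0 against EZH2-/-+EZH2 (main 1), and 0 for H3K4me1 in EZH2-/- and EZH2-/+ against EZH2+/+ (main 1 each). Centring on promoters without H3K27me3 gave 0 for H3K27me3 in EZH2-/+ against EZH2+/+, 1 for H3K4me3 in the same comparison (main 0), 0 for H3K27ac in EZH2-/- against EZH2-/-+EZH2 and 1 in EZH2-/-+EZH2 against EZH2+/+ ESCs. The causes were not tested. Depth limits *CBX8* in RNA-seq and all windows under about 10 reads in ChIP-seq.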
